A study of Mus musculus with 12 samples.

Results

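The gene set described here is Cxcr4, the receptor of the chemokine CXCL12, with 8 other chemokine receptors of lymphoid and myeloid cells: Ccr7, Ccr9, Ccr4, Ccr2, Cxcr3, Cxcr5, Cxcr6 and Cx3cr1. These 9 genes were taken by symbol from 2 tables of mouse RNA sequencing values, each with 23174 gene lines, and all 9 were found in both. RNA was measured in a mouse model of T-ALL, the acute lymphoblastic leukaemia that arises from immature T lineage cells. All 12 samples were of the C57BL/6 strain and Notch1-deltaE+, that is, they carried an activated Notch1. In the ex vivo experiment, 3 samples of splenic T-ALL cells received AMD3100, a small molecule antagonist of CXCR4, and 3 received vehicle. These cells were grown on OP9 cells, a mouse stromal line stopped from dividing with mitomycin C, in medium containing IL-7, a T cell growth factor, at 5 ng/ml. In the other experiment, 3 primary tumours were Cxcr4-/- (knockout, numbered 5, 7 and 8) and 3 were Cxcr4+/+ (wild type, numbered 1, 2 and 4). The labels give the same culture text for the tumours, and whether the tumour RNA came from cultured cells is not settled by them. The dose of AMD3100, its duration, and how and in which cells Cxcr4 was deleted were not stated in the labels. Nor do they state whether replicates were separate animals or cultures, so each p-value here rests on a spread between samples that could be technical.

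Chemokine receptors are G protein-coupled receptors that let leukocytes move along gradients of chemokines, and the set a cell carries decides which tissues it can enter. CXCR4 holds blood progenitors and many leukaemia cells in the CXCL12-rich bone marrow, CCR9 answers CCL25 in thymus and small intestine, CCR7 answers CCL19 and CCL21 in lymph nodes and the thymic medulla, and CCR4 binds CCL17 and CCL22. CCR2 guides monocytes towards CCL2, CXCR3 guides effector T cells and natural killer (NK) cells towards CXCL9 and CXCL10, CXCR5 guides cells into B cell follicles, CXCR6 binds CXCL16, and CX3CR1 marks monocytes and cytotoxic lymphocytes.

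The promoters of Cxcr4, Ccr4 and Ccr9 are shown because these were the receptors of highest mean level ex vivo, Cxcr4 and Ccr4 with similar patterns over the samples and Ccr9 with a very different one. The sequences are the 250 bases before the gene start in RefSeq, build GRCm38.p6, 5′ to 3′ on the gene's strand. Cxcr4 lies on the minus strand at chr1:128592300-128592549, Ccr4 on the minus strand at chr9:114496545-114496794 and Ccr9 on the plus strand at chr9:123766961-123767210. Capitals mark matches, on either strand, to any of 7 motifs.
Cxcr4: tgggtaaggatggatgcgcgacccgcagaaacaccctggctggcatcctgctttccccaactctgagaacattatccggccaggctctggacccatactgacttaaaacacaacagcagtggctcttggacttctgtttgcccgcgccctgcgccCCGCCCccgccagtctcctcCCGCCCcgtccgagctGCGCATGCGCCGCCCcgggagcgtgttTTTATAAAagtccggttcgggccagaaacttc
Ccr4: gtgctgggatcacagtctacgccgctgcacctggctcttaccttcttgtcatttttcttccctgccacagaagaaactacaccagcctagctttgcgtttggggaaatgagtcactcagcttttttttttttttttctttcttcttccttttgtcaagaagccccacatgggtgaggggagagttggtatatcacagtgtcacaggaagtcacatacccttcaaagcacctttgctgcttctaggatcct
Ccr9: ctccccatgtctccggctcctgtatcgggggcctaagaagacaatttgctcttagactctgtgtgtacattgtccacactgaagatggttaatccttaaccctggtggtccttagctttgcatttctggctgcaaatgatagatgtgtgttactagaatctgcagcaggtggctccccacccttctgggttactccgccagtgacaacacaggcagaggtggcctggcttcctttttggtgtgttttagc
The Cxcr4 window held 19 CG dinucleotides and 61.2% G and C, against 3 CG dinucleotides each in the Ccr4 and Ccr9 windows and a median of 6 over all promoters. It held 6 matches: the TATA box letters TATAAA once on each strand, overlapping each other, between bases -32 and -25 from the gene start, the GC box letters GGGCGG in 3 places on the opposite strand, and the motif of NRF1 in 1 place, overlapping 1 GC box. Of 32851 mouse promoter windows of the same length, the TATA box was found in 12.4%, the GC box in 32.7% and the NRF1 motif in 0.782%. The other motifs searched were the RUNX letters TGTGGTT (in 4.4% of windows), the RBPJ letters GTGGGAA (5.42%), the GATA letters AGATAA (9.99%) and the forkhead letters TGTTTAC (3.17%). None of the 7 motifs stood in the Ccr4 or Ccr9 window. Promoter entries were found for 7 of the 9 receptors. Of the others, Ccr7 is on chromosome 11 and Cxcr5 on chromosome 9.
Cxcr3 is on chromosome X, and 6 of the 9 genes are on chromosome 9. There, 1 protein-coding gene lies between Ccr9 and Cxcr6, and 4 lie between Cxcr6 and Ccr2.

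Levels are given as FPKM, fragment counts divided by transcript length and by the mapped fragments of the library, and the 2 tables were analysed separately. Read totals are not given. Steps between low values gave relative depths ex vivo of 1.06, 1.25 and 1.21 for AMD3100 samples 1, 2 and 3, and of 0.908 and 0.757 for vehicle samples 2 and 3, all against vehicle sample 1. No depth could be read from the tumour table. The FPKM of a library summed to between 444803 and 480468 ex vivo and between 368118 and 581159 in tumours, and haemoglobin genes took 2.76% to 20.4% of it in knockout and 1.29% to 23.0% in wild-type tumours. The T cell label held in every sample: 7 T cell genes, Cd3e among them, summed to 4318 to 4516 FPKM with AMD3100, 4548 to 5002 with vehicle, 1760 to 3728 in knockout and 1288 to 4770 in wild-type tumours. In bulk RNA such as this, fewer cells of a type and less RNA per cell cannot be told apart. Gapdh, which every cell uses, was itself listed near 0 throughout, so a value of 0 is given only as listed and does not show absence.

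Ex vivo, every sample carried Cxcr4 and Ccr4 RNA, at 40.0 to 212 FPKM, and the AMD3100 and vehicle groups overlapped for each of the 9 receptors. Of the 9 receptors, 6 had a mean of at least 1 FPKM and were tested with limma on log2(FPKM + 1), a scale that understates the change of low genes. Samples with the same number deviated together, so the paired fit is given wherever it changes a call. At an adjusted p under 0.05, none of the 6 was called without pairing, where 0.127% of the 10245 kept genes were called, and none of the 6 had an unadjusted p under 0.05, against 21.5% of all genes. With pairing 1 of the 6, Ccr7, was called, and 19.9% of all kept genes were. A share of 1 in 6 is not above that background. Of the 6, Ccr7, Ccr9, Ccr4 and Cxcr6 were higher in all 3 pairs, as were 30.8% of all kept genes. Cxcr5, which did not pass the filter, was lower in all 3, but in pairs 1 and 2 it was at no more than 0.127 FPKM. The share of all genes lower in all 3 pairs was not computed.

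Cxcr4 had 182.6, 136 and 212 FPKM in AMD3100 samples 1, 2 and 3, against 183.0, 112 and 141 FPKM in vehicle samples 1, 2 and 3. It was the receptor of highest mean in both groups, at 177 ± 38.5 FPKM with AMD3100 and 145 ± 35.8 FPKM with vehicle (SD, n = 3 each). The groups overlapped: AMD3100 sample 1 was level with its vehicle partner, and the samples numbered 3 differed most, by 1.501-fold. The log2 change of 0.29 did not pass the test without pairing (SE 0.24, limma adjusted p = 0.562) or with it (SE 0.12, limma adjusted p = 0.154). Without the pair numbered 3 it was 0.14. In 2 of the 3 treated samples Cxcr4 RNA lay within the range of the vehicle samples, and AMD3100 sample 3 was above it.

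Ccr4 had 81.4, 44.4 and 102 FPKM with AMD3100 and 74.6, 40.0 and 61.2 FPKM with vehicle. It was higher in all 3 treated samples than in their partners, by 1.09-fold, 1.11-fold and 1.67-fold, but the groups overlapped. The log2 change of 0.34 did not pass the test (limma adjusted p = 0.678 without pairing and 0.144 with it).

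Ccr7, the lymph node homing receptor, rose with AMD3100 in the paired fit. It had 30.1, 24.1 and 2.47 FPKM in AMD3100 samples 1, 2 and 3, against 16.3, 16.2 and 1.14 FPKM in vehicle samples 1, 2 and 3. Each treated sample was above its partner, by 1.84-fold, 1.49-fold and 2.16-fold, while both samples numbered 3 lay far below the rest, so that the groups overlapped. The log2 change was 0.69 (paired SE 0.10, limma adjusted p = 0.0201), and with all samples taken as unpaired it was not called (SE 1.17, limma adjusted p = 0.810). The call was kept without the pair numbered 3 (limma adjusted p = 0.0339) and was lost without pair 1 (limma adjusted p = 0.120) or pair 2 (limma adjusted p = 0.0780).

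Ccr9, the thymus and gut homing receptor, separated the samples by number and not by treatment. It had 0.923, 1.43 and 419 FPKM with AMD3100 and 0.811, 1.08 and 242 FPKM with vehicle. In the samples numbered 3 it was the most abundant of the 9 receptors, and in the other 4 it was near 1 FPKM. The log2 change of 0.37 did not pass the test without pairing (SE 2.82, limma adjusted p = 0.972) or with it (SE 0.16, limma adjusted p = 0.158).

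Cxcr6 had 2.56, 1.71 and 11.996 FPKM with AMD3100 and 1.32, 1.27 and 2.07 FPKM with vehicle. It was above its partner in all 3 treated samples and highest in AMD3100 sample 3. Its log2 change was 0.99 (limma adjusted p = 0.418 without pairing and 0.121 with it) and 0.44 without the pair numbered 3.

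Ccr2, the monocyte receptor, had 0.697, 0.329 and 5.51 FPKM with AMD3100 and 0.534, 0.544 and 0.326 FPKM with vehicle. AMD3100 sample 3 alone was above 1 FPKM, and Ccr2 was tested only because of it (log2 change 0.74, limma adjusted p = 0.582 without pairing and 0.341 with it). In the same sample Ly6c2, of the monocyte marker list, was at 8.87 FPKM, and Csf1r, the receptor that defines the lineage, was listed at 0, as it was in all 6 ex vivo samples. Of that list, 7 of 8 genes were in the table, 2 were listed at 0 in all samples, and the sums were 11.6 to 74.7 FPKM with AMD3100 and 5.81 to 106 FPKM with vehicle.

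Cxcr3, Cxcr5 and Cx3cr1 were under 1 FPKM on average and were not tested. Cxcr3 had 0.934, 0.0793 and 0.492 FPKM with AMD3100 and 0.595, 0.109 and 0.131 FPKM with vehicle. Cxcr5 was listed at 0 in AMD3100 samples 1 and 2 and had 1.38 FPKM in sample 3, against 0.0577, 0.127 and 1.75 FPKM in vehicle samples 1, 2 and 3. Cx3cr1 was at 0.157 FPKM in AMD3100 sample 2 and 0.130 FPKM in vehicle sample 2 and was listed at 0 in the others. The highest value of these 3 genes ex vivo was thus the 1.75 FPKM of Cxcr5 in vehicle sample 3. In the same 6 samples the neutrophil markers were all listed at 0, and the 4 NK markers in the table summed to 0.0475 to 0.685 FPKM with AMD3100 and 0.0888 to 1.15 FPKM with vehicle.

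**Figure D1:**
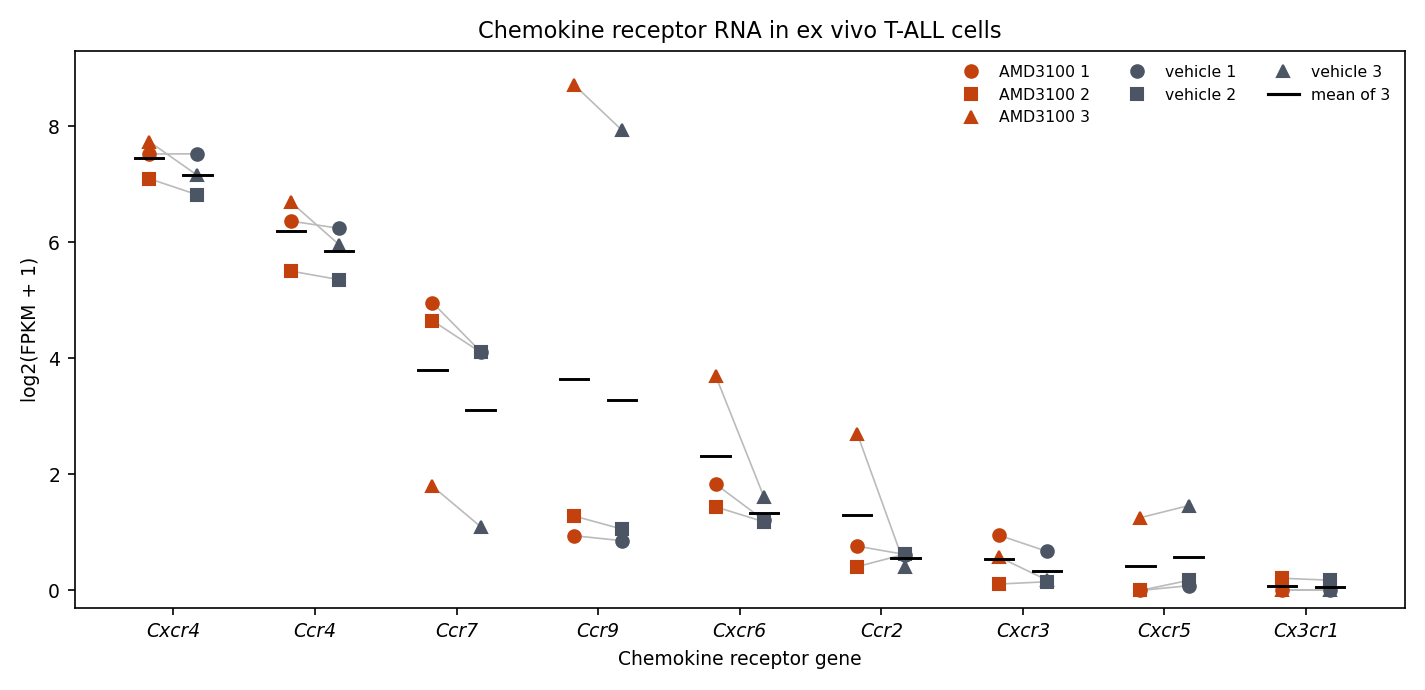
Levels of the 9 receptors in the ex vivo samples as log2(FPKM + 1), AMD3100 in orange on the left and vehicle in grey on the right of each gene; shapes give the sample number, lines join samples of one number and bars are means of 3 samples. Cxcr4 and Ccr4 are high in all 6 samples, and the samples numbered 3 (triangles) are far above the others for Ccr9 and far below them for Ccr7.

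By mean level the order was Cxcr4, Ccr9, Ccr4, Ccr7 and Cxcr6 in both ex vivo groups, followed by Ccr2, Cxcr3, Cxcr5 and Cx3cr1 with AMD3100, and by Cxcr5, Ccr2, Cxcr3 and Cx3cr1 with vehicle. Only Ccr4 and Ccr7 were neighbours in that order whose ranges did not overlap, in AMD3100 and in vehicle samples alike. Cxcr4 made up 28.1% to 65.3% of the summed FPKM of the 9 receptors with AMD3100 and 31.4% to 66.0% with vehicle. The low end in each group was the sample numbered 3, where Ccr9 took 55.5% with AMD3100 and 53.8% with vehicle.

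The samples numbered 3, 1 treated and 1 untreated, had a receptor make-up of their own. Ccr9 was at 242 to 419 FPKM in them against 0.811 to 1.43 FPKM in the other 4, a 312-fold ratio of means, and Ccr7 was at 1.14 to 2.47 FPKM against 16.2 to 30.1 FPKM, 12.01-fold lower. Cxcr5 was at 1.38 to 1.75 FPKM against 0 to 0.127 FPKM. These 2 of the 6 tested receptors, and 3 of all 9, lay outside the range of the other samples, as did 32.9% of all kept genes, about the same share as of the tested receptors. Among these genes, a difference of at least 8-fold on the log2(FPKM + 1) scale was found for 126 genes, 1.23% of those kept. Ccr9 and Ccr7 were among them, Ccr7 only just. The cut of 8-fold was not among the planned settings, so that share is a description only. Cxcr4 and Ccr4 did not separate the numbers: Cxcr4 was at 141 to 212 FPKM in the samples numbered 3 and at 112 to 183 FPKM in the others. Pdgfrb, of the stromal list, was at 4.203 to 11.2 FPKM in the samples numbered 3 and at 136 to 186 FPKM in the others. The rest of that list was far lower: Cxcl12 was at 3.84 to 7.93 FPKM against 8.58 to 15.9 FPKM. Its collagen genes, Pdgfra and Vcam1 were at no more than 3.32 FPKM in any ex vivo sample. What the number stands for is not given in the labels, and its part in these values was not tested.

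In the tumours, Cxcr4 was low in the knockouts, the other lymphoid and myeloid receptors were present in all, and 6 of these 8 had a higher mean in the knockouts, none of them past the test. Cxcr4 had 23.2, 78.9 and 21.9 FPKM in knockout tumours 5, 7 and 8, against 241, 155 and 206 FPKM in wild-type tumours 1, 2 and 4. Every knockout lay below every wild-type tumour, and knockout 7 kept the most. The means were 41.3 ± 32.5 FPKM in knockout and 201 ± 43.4 FPKM in wild type (SD, n = 3 each), so knockout tumours held 20.6% of the wild-type level. The log2 change was -2.49 (SE 0.51), with an unadjusted limma p of 0.00168 and an adjusted p of 0.986. Only 4 of 10741 genes (0.0372%) were called in this comparison. Which exons the allele removes was not stated, and RNA from outside the deleted part and RNA from cells that still carry Cxcr4 cannot be told apart here. Set against the geometric mean of Cd3d, Cd3e and Cd3g, parts of the T cell receptor complex, Cxcr4 was at 0.0797, 0.135 and 0.0446 in knockout and at 0.389, 0.835 and 0.955 in wild-type tumours, again with no overlap.

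None of the 9 receptors was called between the genotypes at an adjusted p under 0.05. Cxcr4, the deleted gene, and Ccr4 had an unadjusted p under 0.05, 2 of 9 with the deleted gene counted, against 4.28% of all kept genes. The genotypes did not overlap for 3 of the 9, Cxcr4 lower and Ccr2 and Cx3cr1 higher in knockouts. Among all kept genes 9.21% did not overlap, 5.2% with the knockouts lower and 4.01% with them higher. One of these 3, Cxcr4, is the deleted gene itself.

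Ccr4 was the one other receptor with a lower mean and a log2 change past -1 in knockout tumours. It had 1.96, 1.86 and 4.21 FPKM in knockouts 5, 7 and 8, against 20.6, 3.83 and 13.9 FPKM in wild-type tumours 1, 2 and 4. Knockout 8 was just above wild type 2, so the groups overlapped. The log2 change was -1.71 (SE 0.63), with an unadjusted limma p of 0.0279 and an adjusted p of 0.986. Relative to the Cd3 genes, Ccr4 was at 0.00317 to 0.00856 in knockouts and 0.0206 to 0.0645 in wild-type tumours, and on that scale the groups did not overlap. On the Cd3 scale the genotypes did not overlap for 2 of the 9 receptors, Ccr4 and Cxcr4, the deleted gene, both lower in knockouts. Among all kept genes 9.3% did not overlap on that scale, 7.76% with the knockouts lower.

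Ccr7 had 62.7, 121 and 18.8 FPKM in knockouts and 27.1, 15.0 and 14.2 FPKM in wild-type tumours. Knockouts 5 and 7 were above all wild-type tumours and knockout 8 lay within their range. The log2 change was 1.49 (SE 0.65, unadjusted limma p of 0.0551, adjusted p of 0.986).

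Ccr9 had 10.5, 30.4 and 17.1 FPKM in knockouts and 76.7, 17.8 and 5.02 FPKM in wild-type tumours. The wild-type tumours spanned the knockouts, and the log2 change of -0.14 (SE 0.89) turned positive without wild type 1 (0.81) or without knockout 5 (0.20).

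Ccr2 had 8.17, 7.93 and 10.1 FPKM in knockouts, against 5.60, 5.94 and 1.31 FPKM in wild-type tumours. Cx3cr1 had 7.60, 8.01 and 33.0 FPKM in knockouts, against 5.70, 6.20 and 0.873 FPKM in wild-type tumours. For both genes every knockout exceeded every wild-type tumour, with log2 changes of 1.03 (SE 0.51) for Ccr2 and 1.62 (SE 0.75) for Cx3cr1 and a limma adjusted p of 0.986 each. Relative to the Cd3 genes both overlapped between the genotypes.

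Cxcr3 had 16.2, 22.8 and 58.5 FPKM in knockouts and 27.3, 12.7 and 7.68 FPKM in wild-type tumours (log2 change 0.95, SE 0.60). Cxcr5 had 22.5, 13.4 and 22.1 FPKM in knockouts and 16.0, 11.8 and 3.86 FPKM in wild-type tumours (log2 change 0.96, SE 0.52). Cxcr6 had 23.3, 38.1 and 20.6 FPKM in knockouts and 23.0, 9.20 and 3.11 FPKM in wild-type tumours (log2 change 1.45, SE 0.64). The genotypes overlapped for all 3 genes, and the limma adjusted p was 0.986 for each. Wild-type tumour 4 had the lowest value of Cxcr3, Cxcr5, Cxcr6, Ccr7, Ccr9, Ccr2 and Cx3cr1 of the 6 tumours, and knockout 8 had the highest of Cxcr3, Cx3cr1 and Ccr2.

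**Figure D2:**
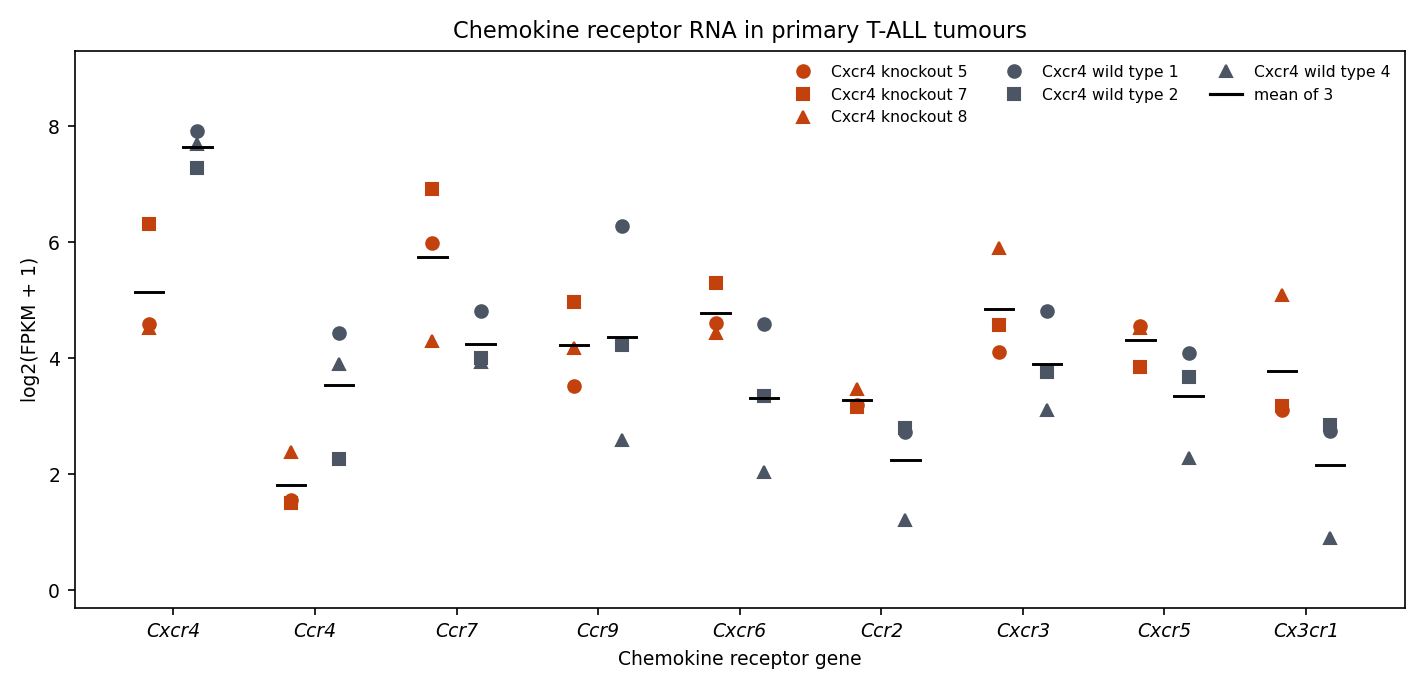
Levels of the 9 receptors in the tumours as log2(FPKM + 1), knockout in orange on the left and wild type in grey on the right of each gene; shapes give the tumour and bars are means of 3 tumours. Cxcr4 is lower in all 3 knockouts than in any wild-type tumour, and wild type 4 (grey triangle) is lowest for 7 of the 9 receptors.

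Markers of other cell types varied between these tumours alongside several receptors. Knockout 8 had the highest sum of the 4 NK markers in the table, with 139 FPKM, and wild type 4 the lowest, with 26.8 FPKM, in ranges of 59.7 to 139 FPKM in knockout and 26.8 to 106 FPKM in wild-type tumours. The 7 monocyte and macrophage markers in the table summed to 58.4 to 131 FPKM in knockout and 28.5 to 105 FPKM in wild-type tumours, again highest in knockout 8 and lowest in wild type 4. The 6 B cell markers summed to 12.4 to 21.8 FPKM in knockout and 2.38 to 12.2 FPKM in wild-type tumours, without overlap. The B cell sum was highest in knockout 8, with Cxcr5 at 22.1 FPKM, and lowest in wild type 4, with Cxcr5 at 3.86 FPKM. Of the B cell list, Ms4a1, which encodes the antigen CD20, and Pax5, the transcription factor of the B lineage, were listed at 0 in both of these tumours. None of the genes of these 3 lists was listed at 0 in all 6 tumours. Neutrophil markers, 8 of 8 in the table, summed to 65.6 to 316 FPKM in knockout and 5.61 to 3088 FPKM in wild-type tumours. The part of such cells in the receptor values was not tested.

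**Figure D3:**
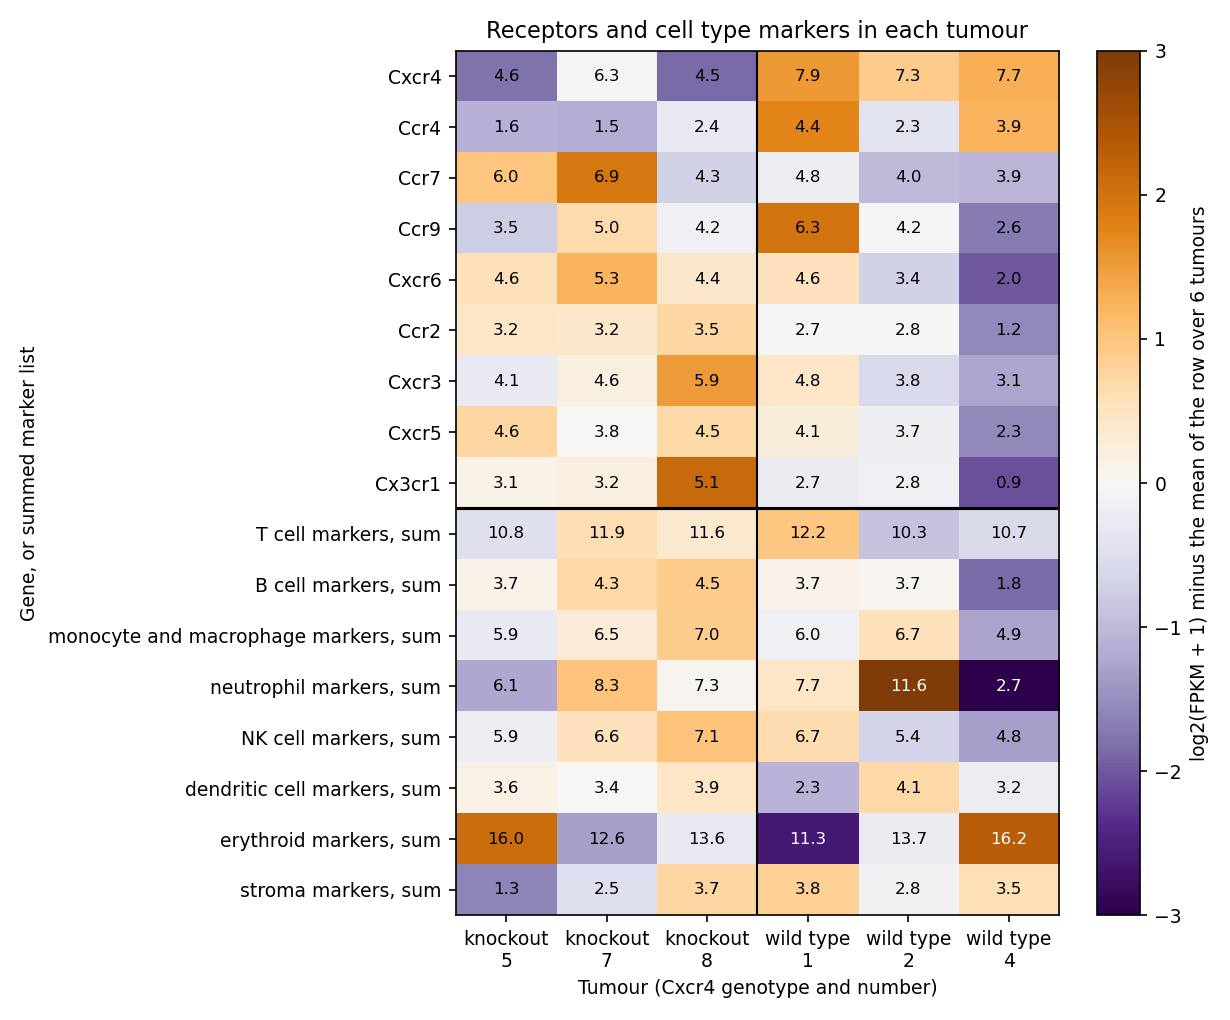
Receptors (above the black line) and summed marker lists (below it) in the 6 tumours, knockouts left and wild types right; the printed values are log2(FPKM + 1) and the colour is the difference from the mean of the row, with the colour scale ending at 3 in either direction. Wild type 4 is low for Cx3cr1, Cxcr6, Cxcr5 and Ccr9 and for the NK, B cell, macrophage and neutrophil sums, while its Cxcr4 is high.

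The order of the receptors by mean level was Ccr7, Cxcr4, Cxcr3, Cxcr6, Cxcr5, Ccr9, Cx3cr1, Ccr2 and Ccr4 in knockout tumours, where only Ccr2 and Ccr4 were neighbours with ranges apart. In wild-type tumours it was Cxcr4, Ccr9, Ccr7, Cxcr3, Ccr4, Cxcr6, Cxcr5, Ccr2 and Cx3cr1, where only Cxcr4 stood apart from the next. Cxcr4 made up 10.6% to 24.5% of the summed FPKM of the 9 receptors in knockout and 54.4% to 80.5% in wild-type tumours. Ccr7 took 9.11% to 37.4% in knockout and 5.55% to 6.32% in wild-type tumours. The summed FPKM of all 9 was 176, 322 and 206 in knockouts 5, 7 and 8 and 443, 238 and 256 in wild-type tumours 1, 2 and 4. Shares of one sum depend on each other, so they are a description of make-up and were not tested.

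**Figure D4:**
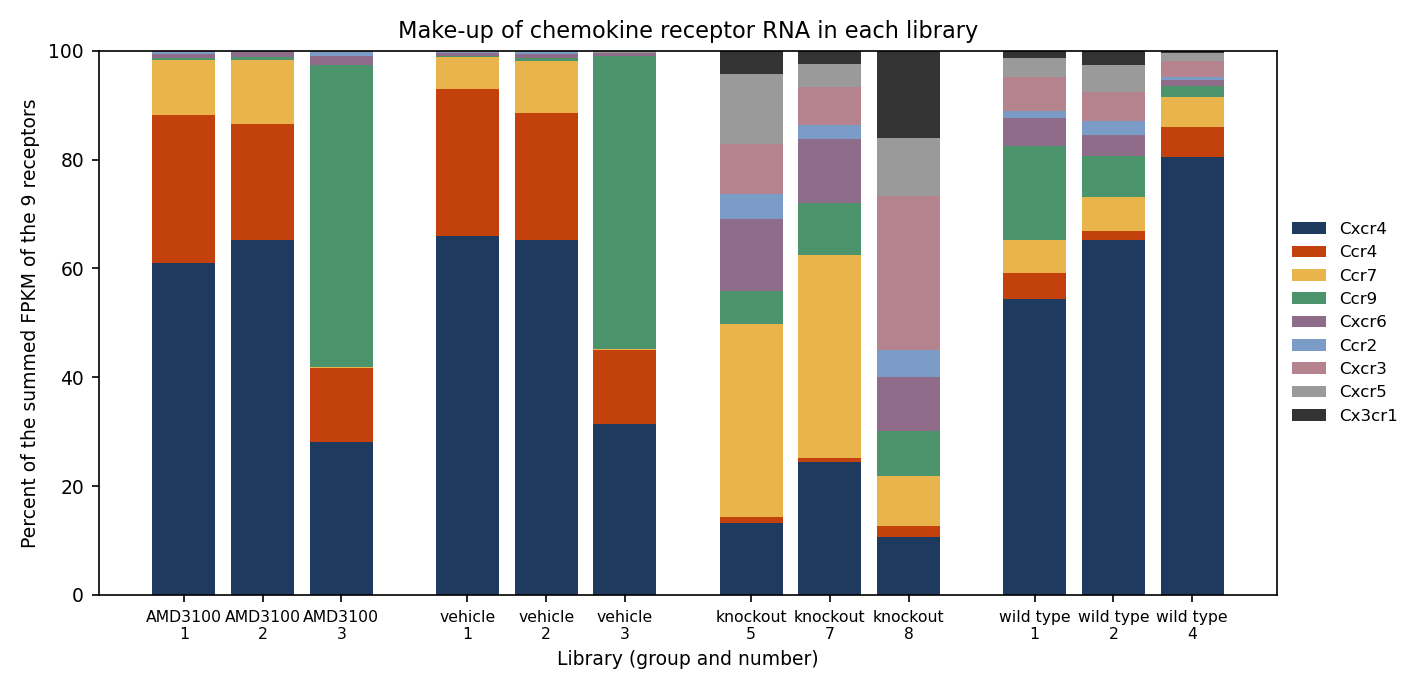
Make-up of the summed FPKM of the 9 receptors in each library, in percent, from AMD3100 and vehicle samples on the left to knockout and wild-type tumours on the right. Cxcr4 (dark blue) is the largest share except in the samples numbered 3, where Ccr9 leads, and in the knockouts.

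Seen side by side, the receptors gave different values under block and deletion, which come from different tables and starting cells and were not tested against each other. Cxcr4 had a log2 change of 0.29 with AMD3100 and -2.49 in knockouts, and Ccr4 of 0.34 and -1.71. Ccr7 had 0.69 and 1.49, Cxcr6 0.99 and 1.45, Ccr2 0.74 and 1.03, and Ccr9 0.37 and -0.14. Of all these changes only that of Ccr7 with AMD3100 was called, in the paired fit. Without the pair numbered 3, the ex vivo change of Cxcr6 was 0.44.

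**Figure D5:**
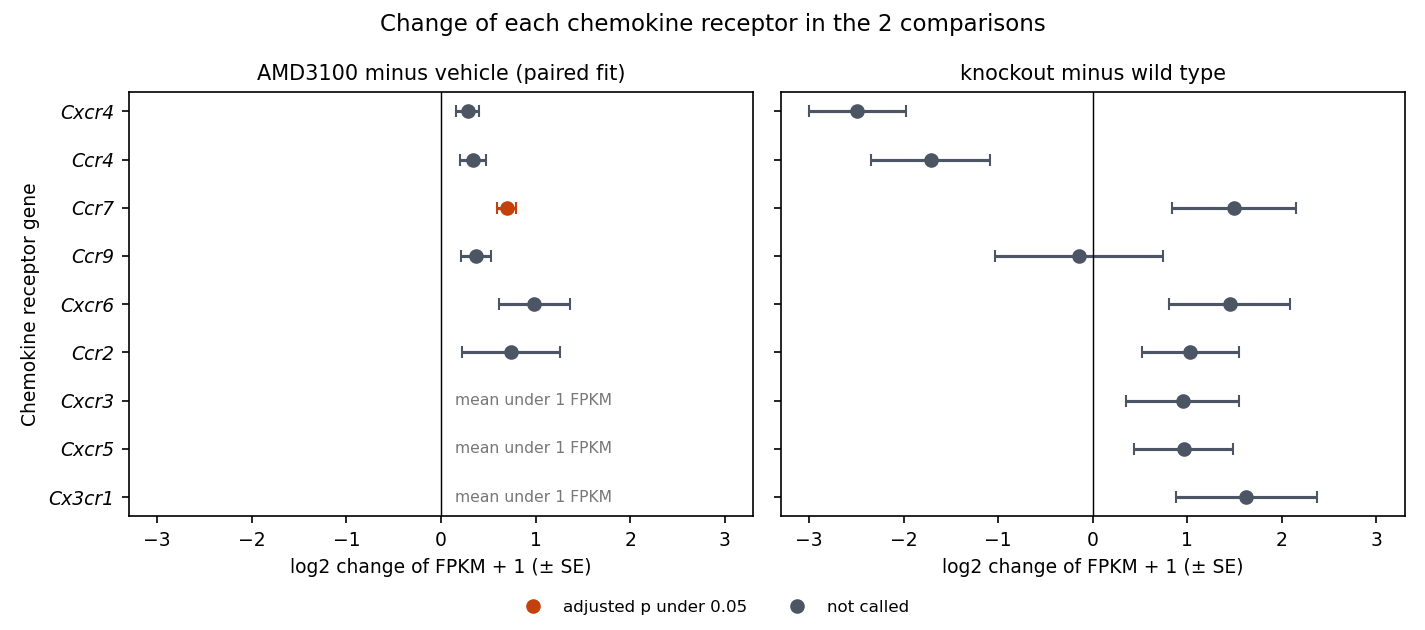
The log2 change of FPKM + 1 of each receptor, AMD3100 minus vehicle in the paired fit on the left and knockout minus wild type on the right; points are estimates, bars are ± 1 SE and orange marks an adjusted p under 0.05. Ccr7 ex vivo is the one receptor called, and in the tumours Cxcr4 and Ccr4 lie below 0 with Ccr9 near it.

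Among the ligands, Cxcl12, which is made by stromal cells and binds CXCR4, had 15.9, 8.58 and 7.93 FPKM with AMD3100 and 10.4, 12.7 and 3.84 FPKM with vehicle. The groups overlapped (log2 change 0.31, limma adjusted p = 0.776 without pairing and 0.449 with it), and it was listed at 0 in all 6 tumours. The OP9 feeder cells are mouse cells too, and RNA from them and from the leukaemia cells cannot be told apart. Cxcr7, the other receptor of CXCL12, had 0.143, 0.0608 and 0 FPKM with AMD3100 and 0.0760, 0.167 and 0.201 FPKM with vehicle, and was listed at 0 in all tumours.

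Mif, a cytokine that also binds CXCR4, fell with AMD3100 in the paired fit. It had 76.4, 87.5 and 69.8 FPKM with AMD3100 and 165, 129 and 132 FPKM with vehicle, and the groups did not overlap, which held for 28.9% of all kept genes, 15.8% with AMD3100 lower. The means were 77.9 ± 8.97 FPKM with AMD3100 and 142 ± 19.9 FPKM with vehicle (SD, n = 3 each). The log2 change was -0.86, with a limma adjusted p of 0.0199 with pairing and 0.0544 without. The paired call was lost without pair 1 (limma adjusted p = 0.1004) or pair 2 (limma adjusted p = 0.0762), and kept without pair 3 (limma adjusted p = 0.0376). In the tumours Mif was at 33.6, 55.7 and 85.8 FPKM in knockouts and 22.4, 26.6 and 13.9 FPKM in wild-type tumours, with no overlap and a change above 0 (log2 change 1.38, unadjusted limma p of 0.0127, adjusted p of 0.986). The difference between the 2 experiments was not tested.

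Of 38 chemokine ligand genes, 35 were in the tables, and 19 of these were listed at 0 in all ex vivo samples and 17 in all tumours. Besides Mif and Cxcl12, the ligands kept ex vivo were Ccl25, the CCR9 ligand, and Ccl7, a CCR2 ligand. Ccl25 had 3.28, 1.28 and 3.46 FPKM with AMD3100 and 3.71, 2.48 and 4.87 FPKM with vehicle (limma adjusted p = 0.608 without pairing and 0.134 with it). Ccl7 had 1.76, 1.87 and 0.194 FPKM with AMD3100 and 0.936, 2.32 and 2.16 FPKM with vehicle. Neither was called. Ccl19, Ccl17 and Cxcl13, ligands of CCR7, CCR4 and CXCR5, were listed at 0 in every sample of both tables.

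The tumours held 12 ligands above the filter, none of them called. Those with the smallest p were Mif, Xcl1 and Ccl4, chemokines of activated T and NK cells in the case of Xcl1 and Ccl4. Xcl1 had 147, 149 and 321 FPKM in knockouts and 121, 42.3 and 5.88 FPKM in wild-type tumours, without overlap (log2 change 2.54, SE 0.97, limma adjusted p = 0.986). Ccl4 had 79.2, 117 and 115 FPKM in knockouts and 116, 42.8 and 13.6 FPKM in wild-type tumours, with overlap. As for the receptors above, wild type 4 was lowest for both. The CXCR3 ligands Cxcl9 and Cxcl10 were low, at up to 4.68 FPKM in knockouts for Cxcl9, against up to 1.70 FPKM in wild-type tumours, and at up to 4.43 FPKM in knockouts for Cxcl10, against up to 3.01 FPKM in wild-type tumours.

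Of 16 other chemokine receptor genes, 1 passed the filter ex vivo and 5 in the tumours, and none was called. Ex vivo that one was Cmklr1, the chemerin receptor, with 0.447, 3.84 and 0.741 FPKM with AMD3100 and 1.26, 4.94 and 0.0696 FPKM with vehicle. Among those with the smallest p in the tumours were Cmklr1 and Darc. Cmklr1 had 1.55, 0.847 and 2.34 FPKM in knockouts and 1.03, 0.802 and 0.408 FPKM in wild-type tumours. Darc, a decoy receptor of red cells and vessels, had 37.7, 6.53 and 0 FPKM in knockouts and 3.95, 18.6 and 37.6 FPKM in wild-type tumours. It was highest in knockout 5 and wild type 4, the tumours with the largest haemoglobin shares, 20.4% and 23.0%, whose part in the Darc values was not tested.

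Some genes that carry the receptor signal rose with AMD3100 in the paired fit. Of 46 such genes (G proteins, receptor kinases and arrestins, RGS proteins, PI3 kinases, migration and receptor turnover), 36 were kept ex vivo. With pairing 9 of the 36 rose and 0 fell, where 9.96% of all kept genes rose and 9.92% fell. Without pairing 0 were called by limma, with 6 of the 36 at an unadjusted p under 0.05, a lower share than the 21.5% of all kept genes. The count of 9 was 0 without pair 1, 0 without pair 2 and 5 without pair 3. The median log2 change of the 36 was 0.20, against 0.0022 for all genes.

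Among those with the smallest p were Arrb2 and Dock2. Arrb2, the arrestin that takes activated receptors off the surface, had 67.6, 57.5 and 37.9 FPKM with AMD3100 and 42.5, 43.4 and 20.9 FPKM with vehicle (log2 change 0.63, paired limma adjusted p = 0.0231). Dock2, which activates Rac for lymphocyte migration, had 67.2, 72.8 and 85.1 FPKM with AMD3100 and 50.4, 58.7 and 63.6 FPKM with vehicle (log2 change 0.38, paired limma adjusted p = 0.0251). The groups did not overlap for Dock2 and overlapped for Arrb2 through the samples numbered 3. In the tumours 41 of the 46 were kept and 0 were called, with a median log2 change of 0.29 and 1 of the 41, Pik3cd, at an unadjusted p under 0.05, a lower share than the 4.28% of all kept genes. Pik3cd, the lymphocyte PI3 kinase, had 59.7, 138 and 87.2 FPKM in knockouts and 75.0, 33.7 and 26.2 FPKM in wild-type tumours (log2 change 1.13, SE 0.48), with overlap.

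The genes whose levels followed Cxcr4 most closely over the 6 ex vivo samples were Rdh10 (Pearson r of log2(FPKM + 1), 0.974), Phf11c (0.973) and Ccr4 (0.968), among 9511 genes searched. Ccr4 itself was followed by Mapkap1 (0.984), H2-M3 (0.981) and Nfkb1 (0.980), and Ccr9 by Wnt6 (0.999), Spef1 (0.998) and Plcg2 (0.998). Wnt6 and Plcg2 shared with Ccr9 the division by sample number: Plcg2 was at 11.9 and 10.4 FPKM in AMD3100 sample 3 and vehicle sample 3 and at no more than 0.112 FPKM in the others. In the tumours Cxcr4 was followed by Ace (0.991), Dhps (0.987) and Cwf19l1 (0.981), among 10011 genes searched. Ace, the angiotensin-converting enzyme, had 2.33, 14.6 and 3.13 FPKM in knockouts and 52.4, 23.4 and 49.8 FPKM in wild-type tumours, with knockout 7 the highest knockout as for Cxcr4. Ccr4 followed Cxcr4 less closely there (0.707). Ccr7 was followed by Psma3 (0.992) and Rnf167 (0.983), and Ccr9 by Npc1 (0.997), Tob2 (0.996) and Kif3b (0.993). With 6 samples, which share treatment or genotype, and so many genes searched, such values are a description only.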

How the data were processed

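The authors deposited 1 FPKM table per experiment, with 1 column per sample, and all columns were matched to samples by name. CASAVA and TopHat were used with build mm9, per the submitters' processing notes. No source used here names the program and annotation behind the FPKM values, or whether counting used strand. Per the labels' protocols, libraries were poly-A selected, made strand-specific with dUTP and read once from one end.

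From these values log2(FPKM + 1) was computed, and genes averaging 1 FPKM or more were tested with limma 3.58.1 in R 4.3.3 (mean trend, two-sided, Benjamini-Hochberg over all kept genes, call at an adjusted p under 0.05), within each table. The fitting code was tested on simulated data. An exact permutation test of 3 against 3 samples cannot give a p under 0.1. Same-numbered ex vivo samples deviated together from their group means (r = 0.467, 0.579 and 0.619, all above the limit of 0.1, against -0.473 to 0.0455 for different numbers), so a fit blocked on replicate number is given where it changes a call. Nothing but these values and the numbers themselves shows the pairing. Tumours share no numbers.

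The members and the gene lists were chosen with earlier results of these data known. Named genes are the 9 receptors, Cxcr7, Cxcl12, ligands of the receptors above 1 FPKM, from each list the genes called (or the 3 of smallest p where more than 6 or none were called), and the 3 genes most like Cxcr4 and the other highest receptors. Not every gene that this rule takes is reported here, a date-like entry for Ccr7 among them, and Ly6c2, Pdgfrb and other marker genes stand beside the receptor values they moved with. Of the lists, Ccl21a, Ccl21b, Cxcl15 and Cd74 are not analysed here. Alternatives were other pseudocounts, filters, scalings and variance models, leaving out each library or pair, and the block.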

Additional observations from a re-analysis of the deposited data

How the results depend on the processing

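Over the alternatives run, the log2 change of Cxcr4 stayed between 0.29 and 0.39 ex vivo (0.11 to 0.46 without any 1 library or pair, adjusted p 0.0745 to 0.854), and between -3.06 and -2.46 in the tumours (-3.08 to -2.18 without any 1 tumour, adjusted p 0.225 to 1.00). Rescaling the tumours without haemoglobin genes or to the Cd3 genes moved the median of all genes to -0.14 and -0.56, and relative to that median Cxcr4 changed by -2.47 and -2.50. Directions turned for Ccr7 ex vivo without vehicle 3 (-0.31, in a range of -0.31 to 1.70 without any 1 library or pair), for Ccr9 ex vivo without AMD3100 3, vehicle 1 or vehicle 2 (-2.17, -0.84 and -0.74, in a range of -2.17 to 2.69), and for Ccr9 in the tumours without knockout 5 or wild type 1 (0.20 and 0.81, in a range of -1.03 to 0.81). The causes were not tested, beyond fewer samples.

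The number of receptors called was 0 without the block under each alternative run. It was 1, Ccr7, with the replicate block, alone and with a pseudocount of 0.1, no filter, median-of-ratios scaling or quantile normalisation, and 0 to 1 without a pair. The block changed no other receptor's call. All genes called ex vivo numbered 13, against 8 with no filter, 188 with a filter of 5 FPKM, 20 with upper-quartile scaling, 3 with quantile normalisation, 1 with no mean trend and 3 to 5 without any 1 library. With the block they numbered 2036, with a pseudocount of 0.1 2040, with no filter 1074, with median-of-ratios scaling 2037, with quantile normalisation 1914, and without a pair 7 to 1207, the highest without pair 3. In the tumours 4 genes were called, against 0 with no filter, 0 rescaled to the Cd3 genes and 0 to 4 without any 1 tumour. Blocked fits under other settings, and those lacking a pair, were chosen after seeing the data.

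Low receptors are limited by depth, which is known only in relative terms ex vivo. With 3 samples a group, a change that was not called does not show equal levels.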
